A study of Mus musculus with 11 samples.

Results

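This account follows 35 genes of satellite glia and genes that were low together with them, out of 55401 genes in the read count files of sorted mouse trigeminal neurons. The set was put together by name, from known satellite glia markers and from genes seen at lower levels in MOC1 than in sham libraries, so the MOC1 against sham values chose it and are given below as a description, without a test. Of the 35 genes, 34 passed the filter on low counts and were among 16817 genes tested, and Scrg1 did not pass. Sensory neurons that serve the face and mouth sit in the trigeminal ganglion, and those labelled backwards from their endings with the dye DiI were sorted from the ganglia of both sides for poly(A)-selected RNA sequencing. Tumour-bearing mice carried MOC1, an oral squamous cell carcinoma line of mouse origin, and the others were sham controls. There were 11 libraries, 6 from MOC1 mice (3 of each sex) and 5 from sham mice (3 female and 2 male). The sorting gate was set on neurons of naive mice and of sham mice injected with DiI. The sources used here do not give strain, age, site of injection or time with the tumour. The labels call every library a neuron library and do not say that libraries of 1 group came from separate animals, so p-values measure the spread between these libraries, which may be technical.

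Satellite glia are the flat cells that wrap the cell body of each sensory neuron. They take up potassium and glutamate around the neuron, couple to one another through gap junctions, carry lipid, and lay down a basement membrane on their outer side. They arise from the neural crest, as Schwann cells do, and keep the crest factor SOX10 in the adult. In bulk RNA, fewer cells of a type and less RNA per cell cannot be told apart, and here glial RNA was read in a sort for neurons.

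The 35 genes lie on 15 chromosomes. RefSeq promoters of build GRCm38.p6 were found for 26 of them, 32 start sites in all, and the 250 bases before each start were searched on both strands for the SOX core words ACAAAG and ACAATG and the RBPJ core word TGGGAA, the site through which Notch acts. ACAAAG was in 5 of the 32 promoters (15.6%) and in 16.5% of all 32851 promoters. ACAATG was in 2 of 32 (6.25%) against 10.7% of all, and TGGGAA in 7 of 32 (21.9%) against 21.6%. No difference in these shares was tested. A match is only a string of letters and no sign of binding. Shown are 3 promoters: Apoe has the highest level in the set, Col28a1 holds all 3 words, and Sox2 encodes a SOX factor itself. Apoe has more than 1 start site, and only the promoter shown held any of the words. Capitals mark the words, and CTTTGT is ACAAAG read on the other strand.
Apoe, chr7:19699189-19699438, minus strand: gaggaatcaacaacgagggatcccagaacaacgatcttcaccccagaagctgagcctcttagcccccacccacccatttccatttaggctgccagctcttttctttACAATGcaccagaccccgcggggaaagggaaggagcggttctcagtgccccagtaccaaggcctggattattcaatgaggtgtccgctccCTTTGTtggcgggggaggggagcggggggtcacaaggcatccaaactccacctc
Col28a1, chr6:8192618-8192867, minus strand: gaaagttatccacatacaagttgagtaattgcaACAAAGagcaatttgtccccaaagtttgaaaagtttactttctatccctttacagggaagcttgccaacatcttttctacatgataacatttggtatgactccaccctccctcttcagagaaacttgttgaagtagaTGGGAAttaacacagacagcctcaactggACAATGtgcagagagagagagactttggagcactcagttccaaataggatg
Sox2, chr3:34649745-34649994, plus strand: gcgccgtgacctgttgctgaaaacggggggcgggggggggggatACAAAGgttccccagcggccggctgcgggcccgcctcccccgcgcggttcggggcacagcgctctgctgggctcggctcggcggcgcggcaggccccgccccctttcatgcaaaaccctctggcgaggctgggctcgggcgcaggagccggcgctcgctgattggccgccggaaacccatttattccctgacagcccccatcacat
Counting the base before the start as -1, the words begin at positions -144 and -54 in Apoe, -217, -80 and -51 in Col28a1, and -206 in Sox2.

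Gene counts per library ran from 10757426 to 15739544 in MOC1 and from 15510643 to 16703797 in sham, with 14180 to 19078 and 16420 to 18114 genes detected. Pan-neuronal genes, the check of the labelled cell type, summed to 14480 to 16700 CPM (each gene's count scaled to a common library total) in MOC1 and 11430 to 14370 in sham, with 10 of 20 higher and 0 lower in MOC1 by edgeR. The 11430 CPM was that of sham female 1, and the other sham libraries ran from 13140 to 14370 CPM. Sham female 1 stood apart: its 11 endothelial markers summed to 1589 CPM, against 124.8 to 268.6 in the other 10 libraries. Its lymphocyte and neutrophil markers summed to 51.5 CPM, against 0.659 to 4.21. Values without that library are given for some of the genes and lists that it moves.

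Nearly the whole set was lower in MOC1. On the log2 scale the 34 tested genes ran from -1.54 (Fabp7) to -0.22 (Aldoc), with a median of -1.07, beside -0.03 over all genes tested. Of the 34, 30 lay between -1.5 and -0.8, and 23 were at least 2-fold lower. By edgeR's quasi-likelihood test at an adjusted p of 0.05, 32 of 34 were called lower and 0 higher, where 4.28% of all tested genes were called lower and 2.34% higher. Glul and Aldoc were the 2 not called. In 28 of 34 every MOC1 library lay below every sham library, as it did for 4.18% of all tested genes. These counts, and those given by role below, follow from how the set was chosen and are read no further. Near the edge of the set by size stood Aldoc at -0.22, Glul at -0.42 and Sox10 at -0.70, and no value was used as a threshold.

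**Figure D1:**
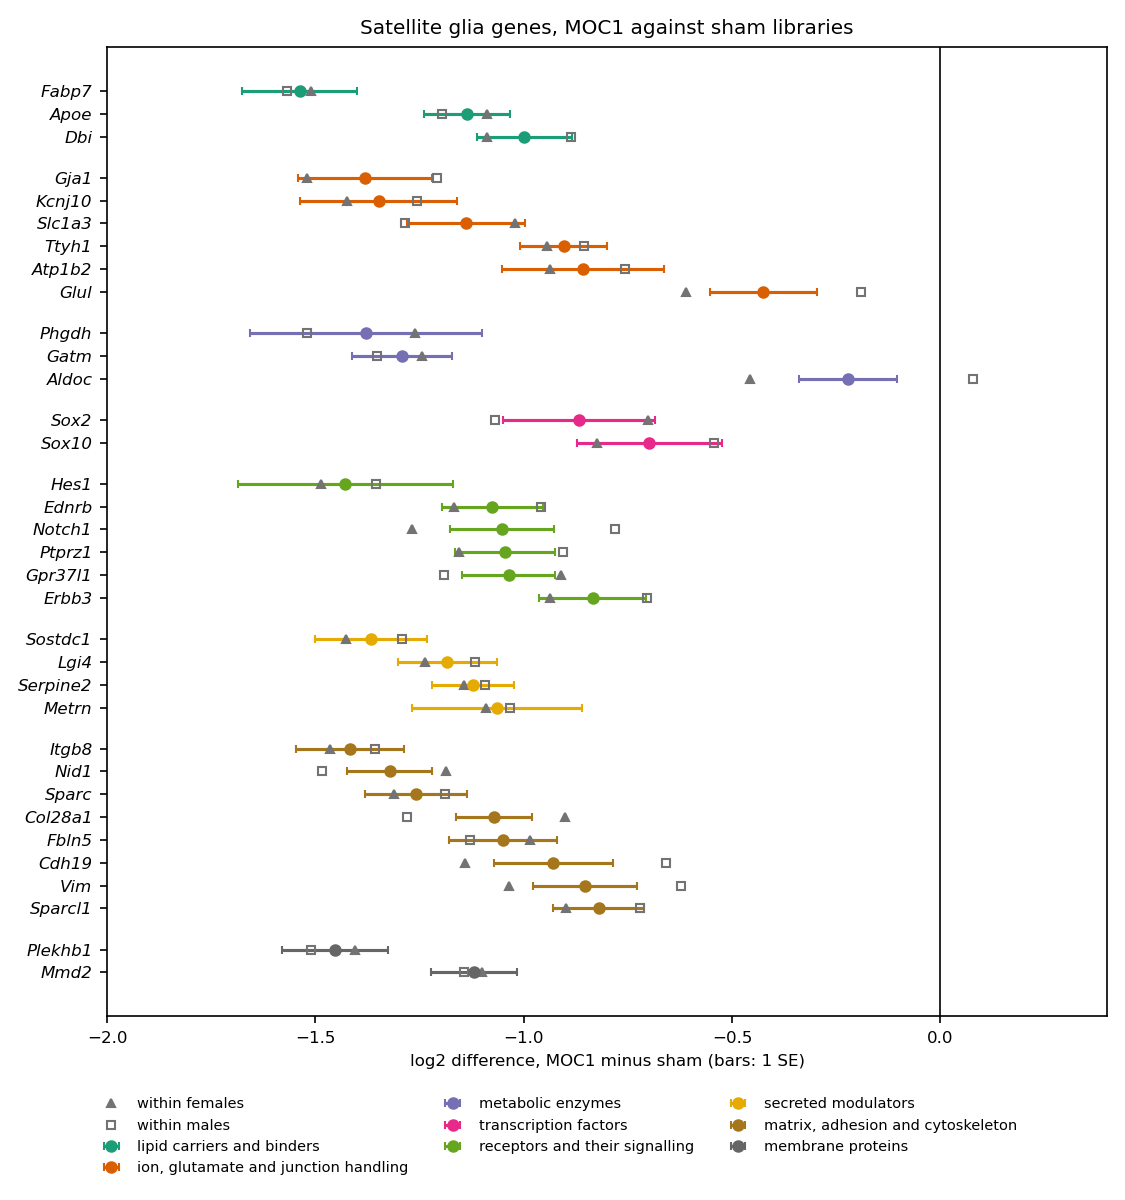
Log2 difference between MOC1 and sham libraries (x axis) for the 34 tested genes, grouped by role, with bars of 1 standard error; triangles and squares give the difference within females and within males. All 34 points lie below 0, from -1.54 for Fabp7 to -0.22 for Aldoc, and the one male value above 0 is that of Aldoc.

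Lipid carriers and binders number 3. Apoe (chr7:19696109-19699188), which encodes the apolipoprotein that glia secrete to carry cholesterol, was the most abundant gene of the set. In the 5 sham libraries it stood at 4220, 5343, 4450, 5214 and 4947 CPM, in the order female 1, 2, 3 and male 1, 3, which is the order used below. In the 6 MOC1 libraries it ran from 1674 through a median of 2122 to 2826 CPM. The lowest sham library was thus 1.49 times the highest MOC1 library, and the means differed by -1.14 on the log2 scale (SE 0.10). Fabp7 (chr10:57784881-57788450) encodes a fatty acid binding protein of brain and satellite glia and is widely used to mark these cells. It stood at 579, 928, 877, 697 and 823 CPM in sham and at 216 to 354 CPM in MOC1, with a median of 242. No MOC1 library reached the lowest sham library, sham female 1, and at -1.54 (SE 0.14), or 2.90-fold, this was the largest difference in the set. Dbi encodes the acyl-CoA binding protein, cleaved into peptides that act at GABA-A receptors. It averaged 188 ± 37.7 CPM in MOC1 (SD, n = 6) and 380.0 ± 42.3 in sham (SD, n = 5), a log2 difference of -0.999.

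Of 6 genes for handling potassium, glutamate, chloride and cell coupling, 5 did not overlap between the arms, with a median of -1.02. Kcnj10 (chr1:172341210-172374085) encodes Kir4.1, the channel through which satellite glia clear potassium. It stood at 256, 322, 282, 281 and 327 CPM in sham and ran from 57.0 through 107 to 167 CPM in MOC1, a log2 difference of -1.35 (SE 0.19). The MOC1 libraries varied more than the sham ones, with a coefficient of variation of 36.3% against 10.3%, and the lowest was MOC1 female 3. Gja1 (chr10:56377330-56402513) encodes connexin 43, a gap junction protein. Its sham values were 108, 118, 79.4, 109 and 94.1 CPM, and its MOC1 values ran from 26.9 through 39.0 to 53.6 CPM, at -1.38 (SE 0.16). Slc1a3 (chr15:8634124-8710764), the glutamate transporter GLAST, stood at 74.2, 76.3, 66.0, 62.5 and 77.5 CPM in sham and 24.6 to 41.9 CPM in MOC1, with a median of 29.9. The difference was -1.14 (SE 0.14), and the arms were wide apart for both Gja1 and Slc1a3.

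Glul (chr1:153899944-153909723), which encodes glutamine synthetase and is a much-used marker of satellite glia, differed far less. It stood at 628, 559, 490.4, 476 and 472 CPM in sham and at 245 to 471 CPM in MOC1, with a median of 401. The highest MOC1 library and the lowest sham library all but touched, at a ratio of 1.00. Its log2 difference was -0.42 (SE 0.13), and -0.24 when MOC1 female 3, MOC1 male 2 and sham female 1 were left out together. Atp1b2, a sodium pump subunit of glia, was at -0.86 with overlapping arms, 63.0 to 177 CPM in MOC1 and 175 to 310.3 in sham. Ttyh1, a membrane protein of the tweety family, was at -0.90 with the arms apart.

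The 3 enzymes split. Phgdh, the first enzyme of serine synthesis, was at -1.38 (15.5 ± 6.70 against 40.1 ± 7.61 CPM), and Gatm, the first enzyme of creatine synthesis, at -1.29 (184 ± 43.7 against 455 ± 25.1). Aldoc (chr11:78322968-78327781), the brain form of the glycolytic enzyme aldolase and an astrocyte marker, showed the smallest difference of the set. Its sham values of 219.8, 224, 252, 199.99 and 183 CPM overlapped with MOC1 values of 135 to 223 CPM, with a median of 186. The difference was -0.22 (SE 0.12). Only 2 of the 6 MOC1 libraries lay below the lowest sham library.

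Both transcription factors overlapped between the arms. Sox2 (chr3:34650405-34652461), a factor of stem cells and glia, stood at 36.1, 46.8, 41.6, 28.8 and 53.9 CPM in sham and ran from 18.6 through 20.2 to 30.4 CPM in MOC1. MOC1 female 3, lowest for many other genes, held the highest MOC1 value of Sox2, and it alone exceeded sham male 1. Sox10 (chr15:79154908-79165240), the factor that sets and keeps glial fate in the neural crest, stood at 60.9, 99.1, 68.1, 85.9 and 68.6 CPM in sham and ran from 28.0 through 47.6 to 63.8 in MOC1. Only MOC1 male 2 lay above the lowest sham library. The log2 differences were -0.87 (SE 0.18) for Sox2 and -0.70 (SE 0.17) for Sox10.

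**Figure D2:**
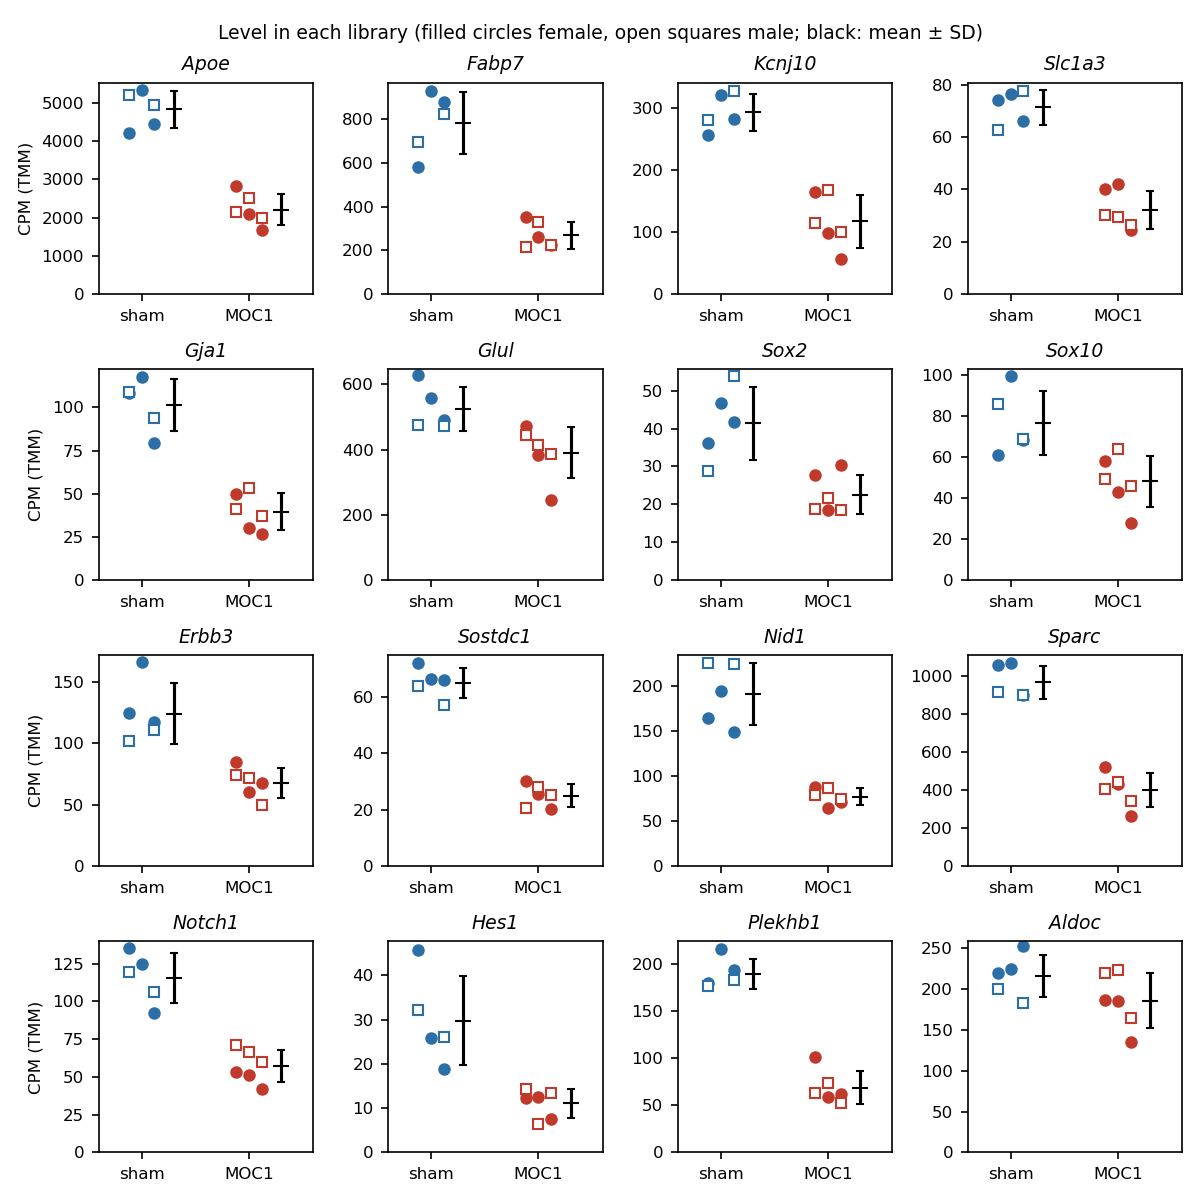
Level of 16 genes in each library as CPM after TMM scaling (y axis, from 0), sham in blue and MOC1 in red, filled circles for females and open squares for males, with the mean ± SD in black. The arms are apart for Fabp7, Kcnj10, Sostdc1, Nid1 and Sparc, overlap for Sox2, Sox10 and Aldoc, and all but touch for Glul.

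Among receptors and their signalling, all 6 genes were apart between the arms, with a median of -1.05. Erbb3 (chr10:128567523-128589652), the neuregulin receptor on which Schwann cell precursors depend, stood at 125, 166, 118, 102 and 111 CPM in sham and ran from 49.5 through 69.9 to 85.1 in MOC1, a difference of -0.83 (SE 0.13). Sham female 2 was the highest by a wide margin. Notch1 (chr2:26457903-26516663), a receptor that holds glial and stem cells in their state, stood at 135, 125, 92.4, 120 and 106 CPM in sham and ran from 42.1 through 56.4 to 71.3 in MOC1, at -1.05 (SE 0.13). Hes1 (chr16:30064384-30067796), a repressor switched on by Notch, stood at 45.7, 25.9, 18.9, 32.1 and 26.0 CPM in sham and ran from 6.31 through 12.3 to 14.2 in MOC1. Its difference of -1.43 (SE 0.26) drew on sham female 1, the library with high endothelial markers, and was -1.20 without it, while Notch1 was then at -0.97. Both genes are expressed in endothelium too, and the part of these cells in the difference was not tested. Without the 3 libraries named above for Glul, Hes1 was at -0.96. Ednrb, the endothelin B receptor, Gpr37l1, an orphan receptor of glia, and Ptprz1, a receptor phosphatase that binds pleiotrophin, lay at -1.08, -1.04 and -1.05.

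Secreted modulators were at -1.37 to -1.06. Sostdc1 (chr12:36314139-36318452), an antagonist of BMP and Wnt signals, stood at 72.1, 66.2, 65.8, 63.7 and 57.2 CPM in sham and ran from 20.2 through 25.6 to 30.1 in MOC1, at -1.37 (SE 0.13). It had the widest clear gap of the set, the lowest sham library being 1.90 times the highest MOC1 library. Serpine2, a protease inhibitor also called glia-derived nexin, was at -1.12, and Lgi4, the ligand by which glia drive myelination, at -1.18. Metrn, a glial neurotrophic factor, was at -1.06, with MOC1 male 2 at 23.3 CPM just above sham female 1 at 23.0.

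Matrix, adhesion and cytoskeletal genes were the largest role, with 7 of 8 apart between the arms. Nid1 (chr13:13437551-13512269), a basement membrane linker, stood at 164, 195, 149, 225 and 224 CPM in sham and ran from 64.3 through 77.2 to 87.8 in MOC1, at -1.32 (SE 0.10). Both sham male libraries were above the 3 sham female ones. Sparc (chr11:55394500-55423183), a collagen-binding matricellular protein, stood at 1058, 1069, 903, 914 and 899.6 CPM in sham and ran from 264 through 419 to 524 in MOC1, at -1.26 (SE 0.12). The lowest sham library was 1.72 times the highest MOC1 library. Its relative Sparcl1 was at -0.82 (-0.75 without sham female 1). Itgb8, an integrin that activates TGF-beta, was at -1.42, Col28a1, a collagen of glial basement membranes in nerve, at -1.07, Fbln5, an elastic fibre protein, at -1.05, and the intermediate filament gene Vim at -0.85. Cdh19, a cadherin of the Schwann cell lineage, was at -0.93, and its highest MOC1 library, 144 CPM, passed sham male 1 at 141 CPM.

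Of the remaining genes, Plekhb1, a membrane protein with a pleckstrin homology domain, was at -1.45, with 52.2 to 101 CPM in MOC1 and 176 to 215 in sham. Mmd2, a membrane protein of the progestin and adipoQ receptor family, was at -1.12. Scrg1, a small secreted protein of glia, was read 12 times in MOC1 female 1, 2 times in MOC1 male 3 and 10 times in sham female 2, and had 0 counts in the other 8 libraries. It gives no comparison at this depth.

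Levels between genes were compared as CPM per kilobase of exon, with exon lengths of GENCODE M21. A gene's length was the union of the exons of all its annotated transcripts, so ranks between genes depend on that annotation. In sham, Apoe led at 2261 ± 227, followed by Fabp7 at 624.6 ± 114, Sparcl1 at 289 ± 40.4, Dbi at 267 ± 29.8 and Sparc at 256 ± 22.9 (SD, n = 5). Dbi and its neighbours Sparcl1 and Sparc did not differ beyond their spread. Glul came at rank 7 with 158 ± 20.3. The lowest tested genes were Gja1 (9.91 ± 1.46), Slc1a3 (8.35 ± 0.78), Metrn (8.14 ± 1.27) and Notch1 (8.13 ± 1.17), the last 3 within their spread of one another. The first 4 ranks were the same in MOC1, where Apoe stood at 1033 ± 189 and Fabp7 at 214 ± 48.1 (SD, n = 6). Even there Apoe lay at the percentile 99.93 of all tested genes with a length, against 99.97 in sham, while Notch1 went from percentile 68.2 to 53.0.

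In some libraries most of the genes also stood on the same side of the mean of their arm. The set was gathered from markers of 1 cell type and genes low together with them. Their shared movement is therefore given as a description and was not tested. Their summed level in sham was 14770, 17130, 14660, 15140 and 15020 CPM, and in MOC1 it was 9213, 6862 and 5347 in females 1, 2 and 3 and 7080, 8408 and 6415 in males 1, 2 and 3. MOC1 female 1 lay above the MOC1 mean for 32 of 34 genes, and was the highest MOC1 library for 22. MOC1 female 3 lay above it for 4 of 34 and was the lowest for 22, and MOC1 male 3 also lay above it for 4. MOC1 male 2 lay above it for 28 of 34, MOC1 male 1 for 21 and MOC1 female 2 for 13. Over all tested genes the share above the arm mean was 52.2% in MOC1 female 1, 41.4% in MOC1 female 3, 53.9% in MOC1 male 3 and 46.5% in MOC1 male 2. It was 57.4% in MOC1 male 1 and 49.7% in MOC1 female 2. In sham, female 2 was above the mean for 31 of 34, and the other 4 libraries for 12 to 17. The share over all tested genes was 51.8% in sham female 2 and 46.8% to 50.2% in the other 4. The median deviation was 0.35 in MOC1 female 1 and -0.38 in MOC1 female 3 on the log2 scale. MOC1 female 1 was the shallowest library and MOC1 female 3 had the fewest genes detected. The part of depth in these shifts was not tested.

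**Figure D3:**
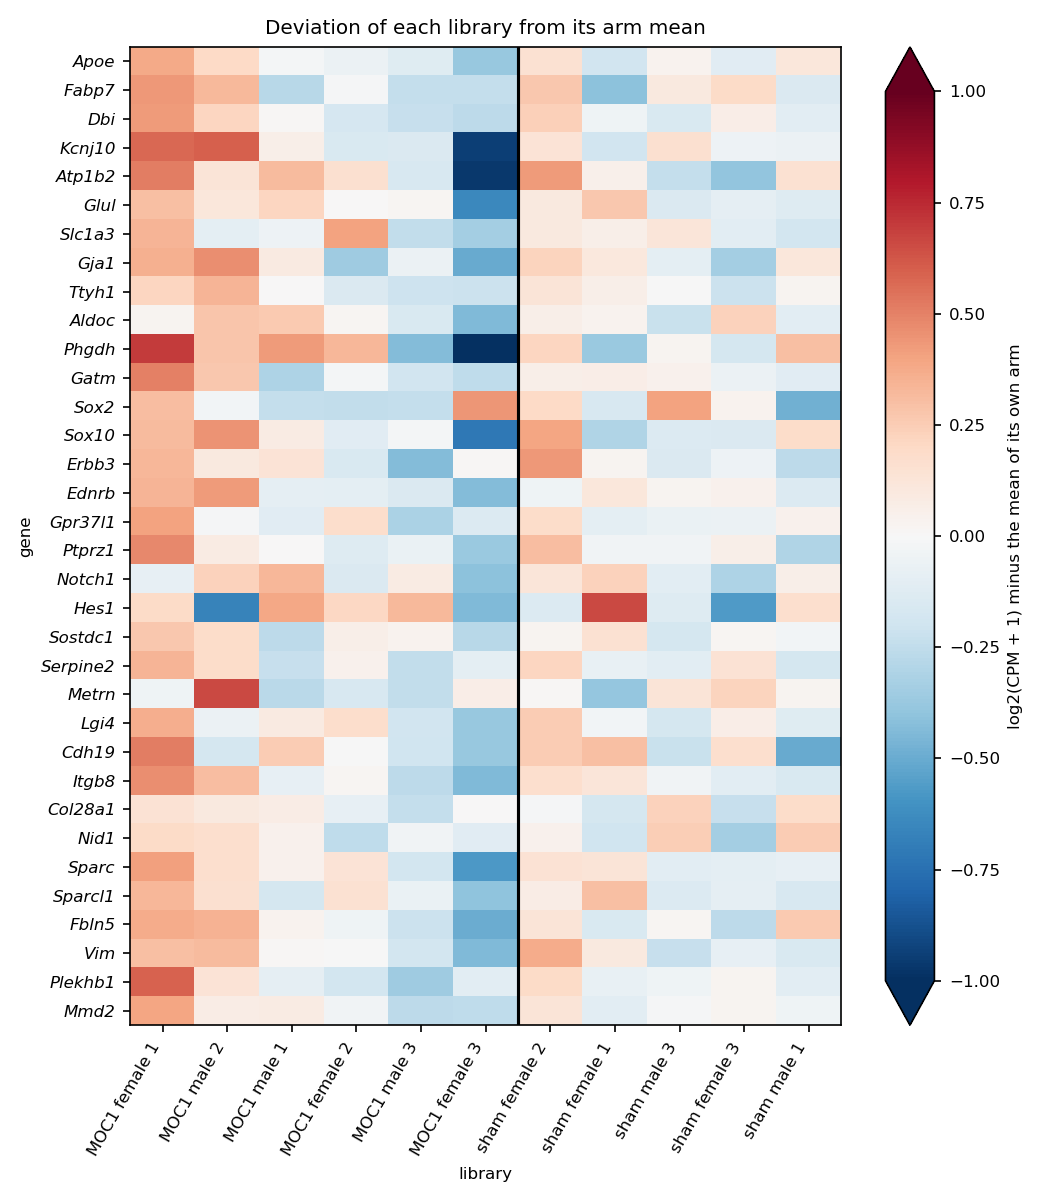
Deviation of each library (columns) from the mean of its own arm for the 34 tested genes (rows), as log2(CPM + 1), with red above and blue below the arm mean and MOC1 left of the line. MOC1 female 1 is above its arm mean for 32 genes and MOC1 female 3 for 4, while MOC1 male 1 is above it for 21 and MOC1 female 2 for 13.

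Marker genes of other cells were read in the same libraries. Over all 16817 tested genes, 3104 stood at an unadjusted p under 0.05 by edgeR, in either direction. By edgeR's adjusted p, 4.28% were called lower and 2.34% higher. The unadjusted counts below also take both directions together. Myelinating Schwann cell genes summed to 750.2 to 904 CPM in MOC1 and 998.5 to 1281 in sham, with 3 of 14 tested genes lower by edgeR and 7 at an unadjusted p under 0.05. The list of non-myelinating Schwann cells, whose genes are shared with neurons, summed to 3813 to 4120 CPM in MOC1 and 3181 to 3613 in sham, with 3 of 7 higher and 1 lower, and 6 at an unadjusted p under 0.05. Fibroblast genes summed to 64.8 to 76.1 CPM in MOC1 and 92.7 to 185.5 in sham, with 1 of 8 lower, 2 at an unadjusted p under 0.05, and Dpt at 0 in every library. Endothelial genes had 1 of 11 lower and 8 at an unadjusted p under 0.05 (125 to 225 CPM against 127 to 1589). Mural genes had 1 of 6 lower and 1 at an unadjusted p under 0.05 (98.9 to 151 CPM against 93.9 to 197). Macrophage genes summed to 8.83 to 31.0 CPM against 17.6 to 66.3, with 0 of 12 called by edgeR and 1 at an unadjusted p under 0.05. The 66.3 CPM was that of sham female 1, and the other sham libraries ran from 17.6 to 28.3 CPM. The immune genes Cd3e, Cd8a and Ly6g were at 0 throughout. Among squamous and tumour markers 0 of 5 tested genes were called by edgeR, with 2 at an unadjusted p under 0.05 (395 to 509.6 CPM against 402 to 456), and the keratins Krt5, Krt6a, Krt17, Krt8 and Krt18 were at 0. Red cell genes ran from 3.83 to 102 CPM in MOC1 and 2.66 to 180 in sham. The sums of the pan-neuronal, Schwann cell and fibroblast lists did not overlap between the arms, and their part in the result was not tested.

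The size of the difference depended on the scaling. When libraries were scaled to the summed pan-neuronal genes, which moves the median of all genes to -0.30, the 34 genes ran from -1.80 to -0.49, with a median of -1.35, and all 34 were lower. Glul and Aldoc were then at -0.71 and -0.49.

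Sex did not enter the choice of the set and could be tested. Between females and males, over both arms, 0 of the 34 genes were called by edgeR, where 0.0416% of all tested genes (7) were. The female minus male differences ran from -0.25 to 0.33, with a median of 0.08. At an unadjusted p under 0.05 stood 3 genes, against 722 of all: Nid1, lower in females at -0.25 (SE 0.10, edgeR adjusted p = 1), Cdh19, higher at 0.33 (SE 0.14, edgeR adjusted p = 1), and Serpine2, higher at 0.21 (SE 0.10, edgeR adjusted p = 1). DESeq2 called 21 genes for sex, and none of the 34 was among them. The difference between the arms was present in both sexes, as a description: 34 of 34 genes were lower in females and 33 of 34 in males, with medians of -1.12 and -1.12, and Aldoc stood at 0.08 in males.

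Whether the tumour difference depended on sex was tested as an interaction. In edgeR 0 of 34 genes passed, as did 0 of all tested genes (0%), with 708 of all and 3 of the 34 at an unadjusted p under 0.05, and DESeq2 called 0 too. The difference between the arms was numerically larger in females for 22 genes and in males for 12. Aldoc had the largest interaction, -0.53 (SE 0.21, edgeR adjusted p = 1), with means of 232 CPM in sham and 169 in MOC1 females, and 192 in sham and 202 in MOC1 males. Notch1 followed at -0.49 (SE 0.23, edgeR adjusted p = 1), and Col28a1 had the opposite sign at 0.38 (SE 0.17, edgeR adjusted p = 1). With 2 sham male libraries, these standard errors are as large as many of the differences, and equal effects in both sexes are not shown.

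The pathways that the set belongs to were followed in 8 lists of other genes, 168 in all, of which 162 were tested. These genes were not used to choose the set, but the lists were drawn up with earlier results known. By edgeR's quasi-likelihood test with Benjamini-Hochberg adjustment over all tested genes, 47 of the 162 fell and 4 rose in MOC1, with a median of -0.48, where 4.28% of all tested genes were called lower and 2.34% higher. Pan-neuronal scaling moved the median of all genes to -0.30, and 1898 of all tested genes were then called lower and 27 higher. Under it 66 of the 162 were lower and 0 higher. By list these were 20 for glial identity, 8 for Notch, 1 each for neuregulin and endothelin, and 2 for potassium and glutamate. Serine, glycine and creatine had 6, lipoproteins 8 and matrix genes 21, with 1 gene counted in 2 lists.

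Further glial identity genes had the most calls besides matrix genes: 13 of 31 fell and 0 rose, with a median of -0.80. Ptn, which encodes the PTPRZ1 ligand pleiotrophin, fell from 417 ± 56.9 to 189.9 ± 42.4 CPM (log2 -1.12, SE 0.13, edgeR adjusted p = 1.82e-05). The proteoglycan gene Bcan fell by 1.11 on the log2 scale, and the metalloprotease inhibitor gene Timp3 by 1.43, from 916 ± 352 to 329 ± 80.8 CPM. Timp3 was uneven between sham libraries, from 710 to 1541 CPM, against 227 to 462 CPM in MOC1. Not every glial marker was called lower. Chosen after their values were seen, S100b stood at -0.26 (edgeR adjusted p = 0.298), Clu at -0.07 (0.821) and Cst3 at 0.17 (0.676). Gfap, the reactive glia filament, averaged 0.317 ± 0.416 CPM in MOC1 and 0.454 ± 0.356 in sham, too low for a comparison.

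Of 30 further Notch pathway genes 7 fell and 0 rose (median -0.46). Jag1, a Notch ligand, fell from 97.0 ± 14.6 to 38.9 ± 10.3 CPM (log2 -1.32, SE 0.16, edgeR adjusted p = 3.71e-05). The Notch targets Nrarp (-1.31), Hey2 (-1.18) and Heyl (-1.29) fell with it (edgeR adjusted p = 1.22e-04, 6.73e-04 and 0.00216). Among 15 genes of neuregulin, ErbB and Lgi signalling, with a median of 0.04, Adam17, a protease that sheds neuregulin, fell by 0.97 on the log2 scale (edgeR adjusted p = 1.58e-04). Adam22, the Lgi receptor on neurons and axons, rose by 0.25 (edgeR adjusted p = 0.022), but stood at -0.02 with pan-neuronal scaling. Its call was also lost when MOC1 female 1, sham female 1 or sham male 1 was left out, with adjusted p up to 0.0656. Of 5 endothelin genes, Ece1, the endothelin-converting enzyme, fell by 0.53 (edgeR adjusted p = 0.00433).

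For potassium and glutamate handling, 1 of 18 further genes fell and 2 rose (median -0.12), counts too small to set against the shares over all genes. Atp1b1, a sodium pump subunit abundant in neurons, rose from 1015 ± 101 to 1273 ± 122 CPM (log2 0.34, SE 0.08, edgeR adjusted p = 0.0105), and with pan-neuronal scaling stood at 0.07 (edgeR adjusted p = 0.615). The count lower was 2 when MOC1 male 2, sham female 1 or sham male 3 was left out.

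In serine, glycine and creatine synthesis 3 of 14 further genes fell and 0 rose (median -0.27). Slc1a4, a neutral amino acid transporter, fell by 0.44 (edgeR adjusted p = 0.0102), the creatine transporter gene Slc6a8 by 0.70 (0.0179), and Gldc, of the glycine cleavage system, by 1.74, from 7.23 ± 1.07 to 2.19 ± 1.05 CPM (0.0266). The calls were unsteady: without MOC1 female 2, or without sham female 2, 1 of the 3 was left. Slc6a8 lost its call in those 2 fits (edgeR adjusted p up to 0.0638), and Gldc also without MOC1 male 3, sham female 3, sham male 1 or sham male 3 (up to 0.107). Of 18 lipoprotein and acyl carrier genes 3 fell and 0 rose (median -0.18). Lrp1, a receptor for APOE, fell by 0.60 (edgeR adjusted p = 0.00645), and Abca1, which loads lipid onto it, by 0.33 (0.0352). The Abca1 call held in only 4 of 11 fits that left out 1 library, being lost without MOC1 female 1, MOC1 female 3, MOC1 male 3, sham female 1, sham female 2, sham male 1 or sham male 3 (up to 0.111). The HDL receptor gene Scarb1 fell by 1.12 (edgeR adjusted p = 0.0102), but by 0.73 without sham female 1.

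Basement membrane and matricellular genes had the most calls, 18 of 33 lower and 1 higher, with a median of -0.92. Fbln2, a fibulin of matrix fibres, fell from 477 ± 66.0 to 193 ± 42.1 CPM (log2 -1.31, SE 0.13, edgeR adjusted p = 4.74e-06), and Dag1, the dystroglycan gene that ties cells to laminin, by 0.92 (SE 0.10). Col4a1, a type IV collagen chain, fell by 1.38 and Lamc1, a laminin chain, by 1.06. Sham levels of Col4a1 were uneven, from 162 to 396 CPM. Its log2 difference ran from -1.49 to -1.13 when 1 library at a time was left out. The list holds genes of fibroblasts and vessel cells as well. Without sham female 1, 15 fell. With all libraries Spock1, a brain proteoglycan, was the 1 that rose, by 0.36 (edgeR adjusted p = 0.0231), and stood at 0.09 with pan-neuronal scaling. It lost its call without MOC1 female 3, MOC1 male 3, sham female 1, sham female 3 or sham male 3 (up to 0.0654).

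**Figure D4:**
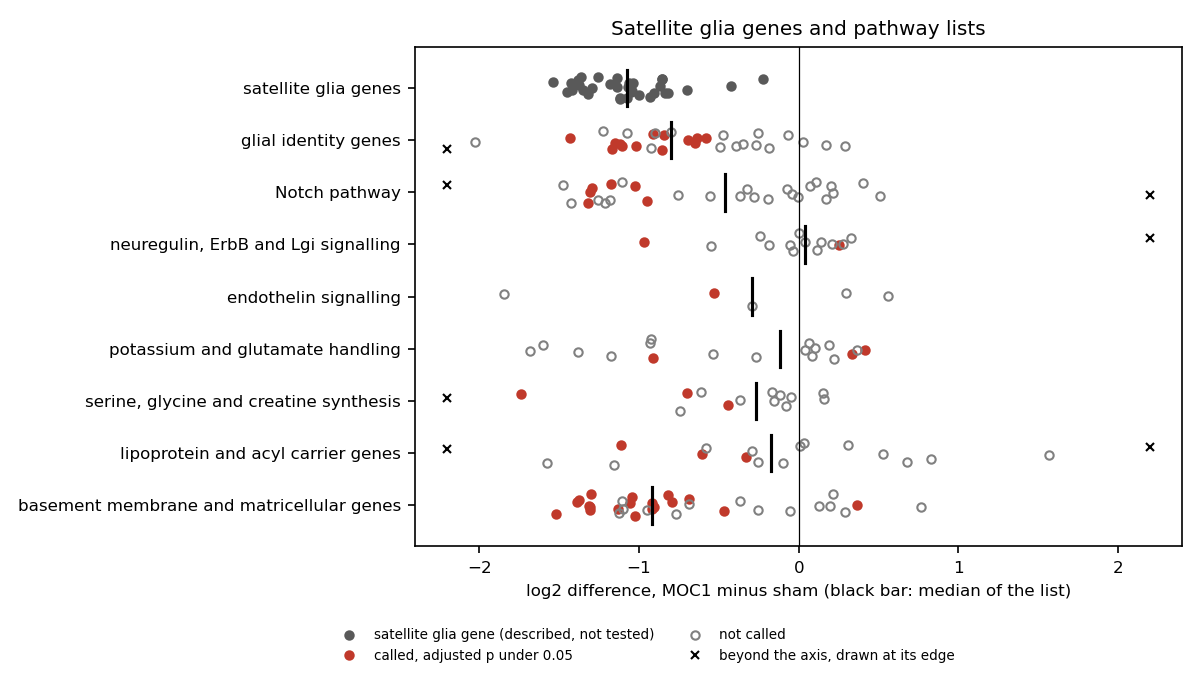
Log2 difference between MOC1 and sham libraries (x axis) for the satellite glia genes, in grey, and for 8 lists of other genes, red where called and open where not, with a black bar at each median. The medians of the glial identity (-0.80) and basement membrane (-0.92) lists lie nearest to that of the satellite glia genes (-1.07). Black crosses mark 7 entries beyond an axis limit of 2.2, called or not, among them the called Notch pathway gene Hes5.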

How the data were processed

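The deposited files hold the authors' raw counts of reads per gene in each library, as whole numbers, stranded per the file headers. Per the submitters' processing notes, Trimmomatic 0.35, STAR 2.7.1a and RSEM were used with build GRCm38 (mm10), and the sources used here do not name the annotation release. Rows that name no gene (18.7% to 21.5% of counts) were left out.

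In R 4.3.3, edgeR 4.0.16 was run with filterByExpr, TMM scaling, quasi-likelihood F tests with sex as a term, and Benjamini-Hochberg adjustment at 0.05 over all 16817 genes. The interaction came from a fit of the 4 groups of arm and sex. Levels are CPM after TMM, while summed lists are CPM of all gene counts without TMM. DESeq2 1.42.0 and limma 3.58.1 (voom) were alternatives. Scripts were tested on simulated data. Same-numbered libraries showed no pairing by correlation: 0 of 15 correlations of deviations were over 0.1 (-0.04 to 0.05). With so few libraries per group, this cannot show whether libraries shared a batch. Replicates differed by more than counting noise, with chi-square per degree of freedom from 13.9 to 42.4.

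The genes and lists were chosen with earlier results of these data known. All 35 genes were named, and in each pathway list up to 4 called genes of smallest p; a few genes are not reported here. Exon lengths came from GENCODE M21, where 35 genes matched, 34 with the same identifier version. Promoters came from RefSeq (GRCm38.p6). Multimapping reads stand in a row of their own in the files, so genes with near-identical copies are uncertain.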

Additional observations from a re-analysis of the deposited data

Results flagged for a closer look

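In 68 groups of libraries checked for 1 value far from the rest, 2 stood out, where about 1 in 20 (3.4) would by chance. Glul in MOC1 female 3 was at 245.1 CPM, with the other 5 MOC1 libraries at 383.1 to 471.1 CPM. Metrn in MOC1 male 2 was at 23.33 CPM, with the other 5 at 11.77 to 15.15 CPM.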

How the results depend on the processing

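The 34 genes gave 714 log2 differences over 21 alternative settings. Of these, 689 moved by less than the pooled SD of single libraries around their arm mean, sexes together. The other 25 moved by more, and 0 changed sign. That SD is not the standard error of the difference. Of the 25, 23 came from pan-neuronal scaling, under which the median of the set was -1.35 and 1925 of all genes were called (27 higher, 1898 lower, against 394 and 719). Leaving out 1 library at a time gave 816 to 1129 calls over all genes, 6 to 9 for sex, 0 to 2 for the interaction (2 without MOC1 female 1 and 2 without sham female 1), 43 to 52 in the pathway lists and a median of the set of -1.18 to -1.04. With the replicate block the calls were 1090 over all genes, 7 for sex, 0 for the interaction and 52 in the lists, and the median was -1.11. Sex calls rose to 21 with DESeq2, 73 without a filter on low counts and 29 without MOC1 female 3, MOC1 male 2 and sham female 1; the interaction gave 53 without the filter and 5 without those 3 libraries. None of the 34 genes was called for sex or interaction under any of these. The causes were not tested. Genes with few counts, such as Scrg1 and Gfap, are limited by depth.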
